A study of Mus musculus with 4 samples.

Results

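The 10 genes examined here code for subunits of the Polycomb repressive complexes. They were taken by name from the 24984 genes of the fragment count table, and all 10 were found there. Ezh1, Ezh2, Eed and Suz12 belong to Polycomb repressive complex 2 (PRC2). Ring1, Rnf2, Bmi1, Pcgf1, Cbx2 and Cbx7 belong to Polycomb repressive complex 1 (PRC1). All 10 had a mean over the 4 libraries of at least 1 CPM, that is, counted fragments scaled to the library total, a level reached by 11625 genes of the table.

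PRC2 places methyl groups on lysine 27 of histone H3 through its catalytic subunit EZH2 or EZH1, and EED and SUZ12 are needed for that activity. PRC1 attaches ubiquitin to histone H2A through RING1 or RNF2 (RING1B), each paired with a PCGF protein. The PCGF partner sets the type of PRC1: BMI1 (PCGF4) sits in canonical complexes, which also hold a CBX protein that reads the PRC2 mark, and PCGF1 sits in a variant complex without CBX. In developing T cells, Polycomb complexes are known for silencing genes of other lineages and inhibitors of the cell cycle, and EZH2 is known as a gene of dividing cells whereas EZH1 is also made in resting cells.

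The libraries came from double positive (DP) thymocytes, the stage of T cell development that carries both CD4 and CD8. There were 2 wild-type (WT) libraries, genotype Tox4;F/F, and 2 conditional knockout (cKO) libraries, genotype Tox4;F/F;Lck+, in which Cre from the proximal Lck promoter deletes exons 4 to 6 of Tox4 from an early thymocyte stage on. Both groups thus carried the floxed allele, and Cre without the floxed allele was not among the groups, so an effect of Cre itself cannot be told apart from that of the deletion. Per the study's methods, mice were gender-matched littermates of 6 to 8 weeks, and cells were cultured for 0.5 h before newly made RNA was labelled with 4-thiouridine. The floxed allele was made in eggs of C57BL/6 background. For CUT&Tag and ATAC-seq the methods describe DP purification by CD4 beads, a step that also binds CD4 single positive cells, and they do not describe it apart for TTchem-seq. TTchem-seq enriches this labelled RNA after fragmentation, so its signal over exons and introns measures transcriptional output and not the mRNA pool.

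Libraries held 38429786 to 48690591 counted fragments. In the values that follow, replicate 1 of a genotype is given before replicate 2. Tox4 had 74.0 and 70.3 CPM in WT against 59.3 and 57.2 CPM in cKO, a log2 fold change of -0.31 ± 0.0998 (SE, n = 2 per genotype, adjusted p = 0.0453 by the DESeq2 Wald test and 0.153 by edgeR). Both cKO libraries were lower, the call was lost when any 1 library was left out (adjusted p from 0.196 to 0.792 by DESeq2), and the counted interval includes sequence outside the deleted exons. The 10 DP markers were all above 1 CPM and summed to 4429 to 5387 CPM, against 12.2 to 14.2 CPM for 6 B cell markers, 24.7 to 28.1 CPM for 6 myeloid markers and under 2 CPM for thymic stroma, where Psmb11 was at 0 in every library. For 4 markers of the earlier double negative stage the sum was 56.8 to 64.6 CPM. The 4 mature single positive markers summed to 361 to 443 CPM, with Il7r called higher and Ccr7 lower in cKO, and of the DP markers Cd8a and Rag1 were called lower, all by DESeq2 and none by edgeR. Their part in the results that follow was not tested. WT replicate 1 stood apart from the other 3 libraries. It had 172 CPM of Xist, the RNA that coats the silenced X chromosome of females, against 2.36, 1.09 and 0 CPM. These Xist values go against mice matched in sex across the libraries, and whether libraries pool mice or sexes is not stated. Each of 18 genes of S and G2/M phase and each of the 10 DP markers was also lower in WT replicate 1 than in WT replicate 2. All 10 Polycomb genes lie on autosomes, and so do these 18 genes and the 10 DP markers. The part of sex or of WT replicate 1's state in the members' values was not tested.

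Promoter sequences are shown for Ezh2 and Suz12, the PRC2 genes with the clearest differences, beside Ezh1, the paralog of Ezh2, and Bmi1, which had the largest fold change. They are RefSeq sequences of GRCm38.p6, given 5′ to 3′ on the coding strand, each with 250 bases before the start site and 30 bases from it. Ezh2 is on the minus strand (chr6:47595001-47595280), as is Ezh1 (chr11:101226434-101226713), whereas Suz12 (chr11:79992856-79993135) and Bmi1 (chr2:18676768-18677047) are on the plus strand. Capitals mark a match to TTTCCCGC, TTTCGCGC, TTTGCCGC or TTTGGCGC, the E2F words searched on both strands. E2F factors act on genes of dividing cells.
Ezh2: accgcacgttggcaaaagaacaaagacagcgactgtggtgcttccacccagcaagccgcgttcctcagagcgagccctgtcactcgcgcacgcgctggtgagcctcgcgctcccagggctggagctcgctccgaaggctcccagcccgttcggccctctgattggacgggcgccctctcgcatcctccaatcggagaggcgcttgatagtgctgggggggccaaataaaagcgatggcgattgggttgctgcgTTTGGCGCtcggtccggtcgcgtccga
Ezh1: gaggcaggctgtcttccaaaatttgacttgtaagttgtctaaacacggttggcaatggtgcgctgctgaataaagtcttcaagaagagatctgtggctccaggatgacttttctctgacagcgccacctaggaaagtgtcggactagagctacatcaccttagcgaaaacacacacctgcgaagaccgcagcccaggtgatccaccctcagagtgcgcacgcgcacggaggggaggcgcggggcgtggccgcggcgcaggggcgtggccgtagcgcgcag
Suz12: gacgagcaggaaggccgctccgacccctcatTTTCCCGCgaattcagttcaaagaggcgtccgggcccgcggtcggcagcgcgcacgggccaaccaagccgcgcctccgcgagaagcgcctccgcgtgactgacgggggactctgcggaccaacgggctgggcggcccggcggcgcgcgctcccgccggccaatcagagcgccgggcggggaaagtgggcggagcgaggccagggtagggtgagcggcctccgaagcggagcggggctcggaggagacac
Bmi1: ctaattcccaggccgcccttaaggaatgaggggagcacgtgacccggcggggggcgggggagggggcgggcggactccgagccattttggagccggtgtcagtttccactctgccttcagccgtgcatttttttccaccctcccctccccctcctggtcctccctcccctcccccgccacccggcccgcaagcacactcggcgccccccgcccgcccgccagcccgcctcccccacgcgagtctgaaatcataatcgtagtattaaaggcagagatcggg
Of the 8 members with a promoter window in the reference table, which leaves out Pcgf1 and Cbx2, those of Ezh2 and Suz12 held an E2F word. With the start site as base 0, TTTGGCGC began at base 3 of Ezh2 and TTTCCCGC at base -219 of Suz12. The other 6 windows held none. Such a word was found in 2.265% of all 32851 windows of 300 bases, and in 4.195% of the 11584 windows of genes with a mean of at least 1 CPM. The match is a description of the letters and not of binding. The 8 windows held from 17 CpG in Eed to 41 in Suz12, with 31 in Ezh2, 23 in both Ezh1 and Bmi1, 37 in Ring1, 30 in Rnf2 and 33 in Cbx7. The median was 7 over all windows and 21 over those of genes with a mean of at least 1 CPM.

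The comparison of cKO with WT asked whether loss of Tox4 altered the transcriptional output of these genes. Ezh2 output increased 1.28-fold by DESeq2, and it was the single member called. The other 9 members, of which Suz12, Bmi1 and Pcgf1 had higher and Ezh1 and Cbx7 lower values in both cKO libraries, did not pass the test. Calls needed an adjusted p under 0.05 by the DESeq2 Wald test over all genes, a change of 1.2-fold or more and a mean that reached 1 CPM. Of the 11625 genes, 3.71% were called, 2.14% with increased and 1.57% with decreased output, and 1 of 10 members cannot be set apart from that background. Both cKO libraries were above both WT libraries for 4 members and below for 2. Over all tested genes these shares were 24.9% and 24.0%. Fold changes were above 0 for 8 members and below 0 for 2, with a median log2 fold change of 0.13 against 0.00 over all tested genes, and of 0.11 to 0.20 when any 1 library was left out. At an unadjusted p under 0.05 there were 4 members by DESeq2, against 13.5% of all tested genes, and 4 by edgeR, against 15.6%, and edgeR called 0. Since DP libraries are bulk samples, fewer cells of a type and less RNA per cell cannot be told apart in any of these values. The study's reporting summary calls the replicates of its genomic assays biological, and nothing in the labels ties them to separate mice. The DESeq2 and edgeR p-values measure the spread between these libraries, with the spread of each gene estimated with help from the other genes.

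**Figure D1:**
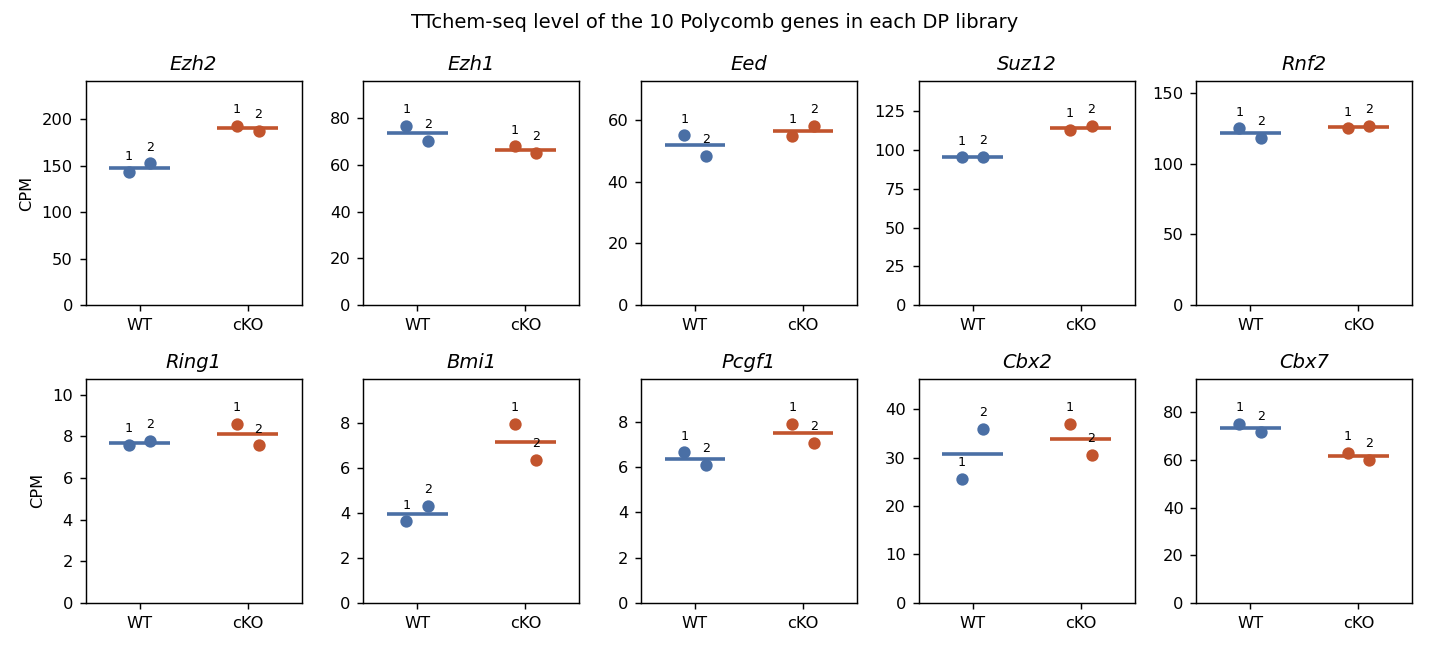
Transcriptional output of the 10 Polycomb genes in CPM (y axis, from 0, scaled per gene) in the WT and cKO libraries; points are libraries with their replicate number, and horizontal lines are means of the 2 libraries. Ezh2, Suz12, Bmi1 and Pcgf1 were higher in both cKO libraries than in both WT libraries, Ezh1 and Cbx7 were lower in both, and Eed, Rnf2, Ring1 and Cbx2 overlapped.

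Ezh2, the PRC2 methyltransferase of dividing cells, had 143 and 153 CPM in WT against 193 and 188 CPM in cKO. The cKO libraries were both above the WT libraries, and the gap between genotypes was wider than the gap within either. The mean went from 148 ± 6.85 to 190 ± 3.55 CPM (SD, n = 2), a log2 fold change of 0.36 ± 0.0825 (SE) or 1.28-fold, with a 95% interval of 0.20 to 0.52 and an adjusted p of 0.000983. Between 6095 and 7465 fragments lay on Ezh2 in each library. The call was made by DESeq2 and not by the other tools. By edgeR's quasi-likelihood test the adjusted p was 0.0932 and by limma voom 0.0826, at the same fold change, and edgeR called 0.499% of the tested genes. With the replicate number as a block, DESeq2 did not make the call either (adjusted p = 0.0535). The call was also lost without WT replicate 1 (log2 fold change 0.31, adjusted p = 0.127), without cKO replicate 1 (0.35, adjusted p = 0.286) and without cKO replicate 2 (0.38, adjusted p = 0.217), and kept without WT replicate 2 (0.42, adjusted p = 0.0031).

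Ezh1 codes for the alternative methyltransferase of PRC2. It had 76.6 and 70.3 CPM in WT against 67.9 and 65.0 CPM in cKO. Both cKO values were below both WT values, with a step between genotypes narrower than the gap between the WT libraries. DESeq2 gave a log2 fold change of -0.15 ± 0.10 (SE), a 95% interval of -0.34 to 0.05 and an adjusted p of 0.567, so that no difference passed the test. It stayed below 0, between -0.20 and -0.093, when any 1 library was left out.

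Suz12, the zinc finger subunit around which PRC2 is built, had 95.3 and 95.8 CPM in WT against 113 and 116 CPM in cKO. Its replicates were close, and the genotypes did not overlap. DESeq2 gave a log2 fold change of 0.26 ± 0.0872 (SE), with a 95% interval of 0.09 to 0.43. It missed the threshold in DESeq2 (adjusted p = 0.0694), in edgeR (0.159) and in each of the other settings, while the fold change stayed between 0.24 and 0.28 when any 1 library was left out.

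Eed, which binds the methyl mark made by PRC2 and stimulates the enzyme, had 55.1 and 48.4 CPM in WT against 55.0 and 58.1 CPM in cKO. The genotypes overlapped. For Eed the log2 fold change was 0.13 ± 0.113 (SE), its 95% interval running from -0.10 to 0.35 (adjusted p = 0.719 by DESeq2), and it was 0.041 with WT replicate 2 left out and 0.21 with WT replicate 1 left out. The summed output of the 4 PRC2 core genes was 370.1 and 367.2 CPM in WT against 428.8 and 426.5 CPM in cKO, a gap made mostly by Ezh2 and Suz12.

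By the curated RefSeq transcripts, exons made up 4.12% of the counted interval of Ezh2 (chr6:47530274-47595030, 64757 bp, 20 exons), 7.83% of Eed (chr7:89954654-89980976, 26323 bp, 12 exons), 10.7% of Suz12 (chr11:79993106-80034123, 41018 bp, 15 to 16 exons) and 11.9% of Ezh1 (chr11:101191115-101226463, 35349 bp, 21 exons). Most of the counted interval of these genes was therefore intron. The PRC1 members were Rnf2 (chr1:151469398-151500991, 31594 bp, 7 to 9 exons, 12.5% exonic), Ring1 (chr17:34020792-34024680, 3889 bp, 7 exons, 52.3%), Bmi1 (chr2:18677018-18686629, 9612 bp, 10 exons, 37.4%), Pcgf1 (chr6:83078390-83080855, 2466 bp, 9 exons, 35.4%), Cbx2 (chr11:119023021-119031275, 8255 bp, 5 exons, 45.5%) and Cbx7 (chr15:79915807-79932646, 16840 bp, 7 exons, 17.2%). None of the 10 members overlapped another gene of the table on either strand.

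Rnf2 and Ring1 code for the ubiquitin ligases of PRC1. Rnf2 had 125 and 118 CPM in WT against 125 and 127 CPM in cKO. Ring1 had 7.60 and 7.78 CPM in WT against 8.61 and 7.57 CPM in cKO. Both genes overlapped between genotypes. The log2 fold change of Rnf2 was 0.05 ± 0.0853 (SE), with a 95% interval of -0.12 to 0.21, which lies within 1.2-fold in either direction, and with 1 library left out it lay between 0.012 and 0.079. That of Ring1 was 0.07 ± 0.228 (SE), with an interval of -0.38 to 0.52, which includes a change of the size seen for Ezh2, and it turned to -0.018 without cKO replicate 1 and reached 0.16 without cKO replicate 2.

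Among the PCGF members, Bmi1 had 3.64 and 4.31 CPM in WT against 7.99 and 6.36 CPM in cKO. Both cKO libraries were above both WT libraries. Its log2 fold change was 0.85 ± 0.28 (SE) or 1.80-fold, with a 95% interval of 0.30 to 1.40, the largest of the 10 members. It rested on 155 and 210 fragments in WT against 307 and 253 in cKO, and its adjusted p was 0.0551 by DESeq2 and 0.153 by edgeR. It was called in 1 setting, when genes were required to reach 1 CPM in every library (adjusted p = 0.0471), and its fold change lay between 0.68 and 0.999 with any 1 library left out. Commd3, which ends 787 bp upstream of Bmi1 on the same strand and was looked up after the values were seen, had 6.38 and 6.98 CPM in WT against 8.51 and 9.71 CPM in cKO (log2 fold change 0.44, adjusted p = 0.367 by DESeq2). Whether transcription running on from Commd3 adds to the Bmi1 signal was not tested.

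Pcgf1, the PCGF subunit of a variant PRC1 with the histone demethylase KDM2B, had 6.64 and 6.10 CPM in WT against 7.91 and 7.07 CPM in cKO. The genotypes did not overlap, by a narrow margin. This was a log2 fold change of 0.23 ± 0.242 (SE), its 95% interval running from -0.24 to 0.71 (adjusted p = 0.775 by DESeq2) and 0.16 to 0.31 the range with any 1 library left out.

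Of the CBX members, which read the mark of PRC2, Cbx7 had 75.3 and 71.5 CPM in WT against 63.0 and 59.96 CPM in cKO. Both cKO libraries were below both WT libraries, and the genotypes were further apart than the replicates. This was a log2 fold change of -0.26 ± 0.0993 (SE) or 0.836-fold, its 95% interval running from -0.45 to -0.06. It did not pass the test (adjusted p = 0.135 by DESeq2 and 0.2096 by edgeR), and it lay between -0.29 and -0.23 when any 1 library was left out.

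Cbx2 had 25.6 and 35.9 CPM in WT against 37.0 and 30.6 CPM in cKO. The WT libraries were further apart than the genotype means, which were 30.7 ± 7.26 and 33.8 ± 4.54 CPM (SD, n = 2). The log2 fold change was 0.13 ± 0.168 (SE, adjusted p = 0.823 by DESeq2), and it was -0.099 when WT replicate 1 was left out and 0.40 when WT replicate 2 was. The direction of Cbx2 thus turned with the WT library used. The 6 PRC1 members summed to 243.9 CPM in each WT library and to 249.6 and 238.4 CPM in the cKO libraries.

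**Figure D2:**
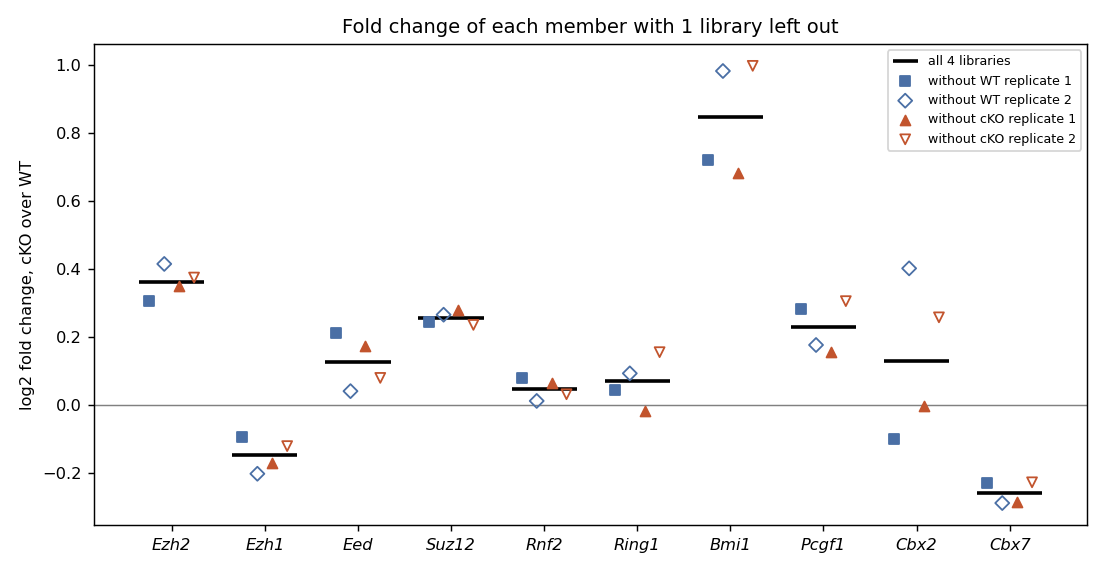
DESeq2 log2 fold change of each Polycomb gene, cKO over WT (y axis), with all 4 libraries (black bars) and with each library left out in turn (symbols). Ezh2, Suz12, Bmi1, Pcgf1, Eed and Rnf2 stayed above 0 and Ezh1 and Cbx7 below 0 in all 4 refits, whereas Cbx2 and Ring1 crossed 0. The lowest refits of Rnf2 (0.012) and Eed (0.041) were close to 0.

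Ratios of paralogs within a library do not depend on how libraries are scaled, and were taken per kilobase (kb) of counted gene length. The ratio of Ezh2 to Ezh1 output was 1.02 and 1.19 in WT against 1.55 and 1.58 in cKO. The methyltransferase genes were thus near equal output per kb in WT, and Ezh2 was ahead in both cKO libraries. The mean log2 ratio went from 0.136 ± 0.155 to 0.644 ± 0.0170 (SD, n = 2), a difference of 0.51 or 1.42-fold. In an exact two-sided permutation test of 2 against 2 libraries the p was 0.3333, the smallest this design allows.

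The ratio of Bmi1 to Pcgf1 was 0.141 and 0.181 in WT against 0.259 and 0.231 in cKO. Bmi1 was the lower of the pair in every library, and the log2 difference between genotypes was 0.62 (exact permutation p = 0.3333). The ratio of Cbx2 to Cbx7 was 0.694 and 1.02 in WT against 1.198 and 1.04 in cKO. The genotypes were set apart only by the narrow step between WT replicate 2 and cKO replicate 2, and the log2 difference was 0.41 (exact permutation p = 0.3333), falling to 0.13 without WT replicate 1. The ratio of Rnf2 to Ring1 was 2.03 and 1.87 in WT against 1.79 and 2.06 in cKO. It overlapped between genotypes (log2 difference -0.021, exact permutation p = 1).

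Levels can be set beside each other per kb. Averaged over the 4 libraries, Cbx7 had 4.00, Rnf2 3.92 and Cbx2 3.91 CPM per kb, and these 3 lay near the 80th percentile of the tested genes (80.8, 80.2 and 80.1). Pcgf1 had 2.81, Ezh2 2.61 and Suz12 2.56 CPM per kb, followed by Eed with 2.06, Ring1 with 2.03 and Ezh1 with 1.98. Bmi1 was lowest with 0.580 CPM per kb, at percentile 28.03. Neighbours in this order had overlapping ranges over the libraries except at 2 steps, from Suz12 (2.32 to 2.82) to Eed (1.84 to 2.21) and from Ezh1 (1.84 to 2.17) to Bmi1 (0.378 to 0.831).

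**Figure D3:**
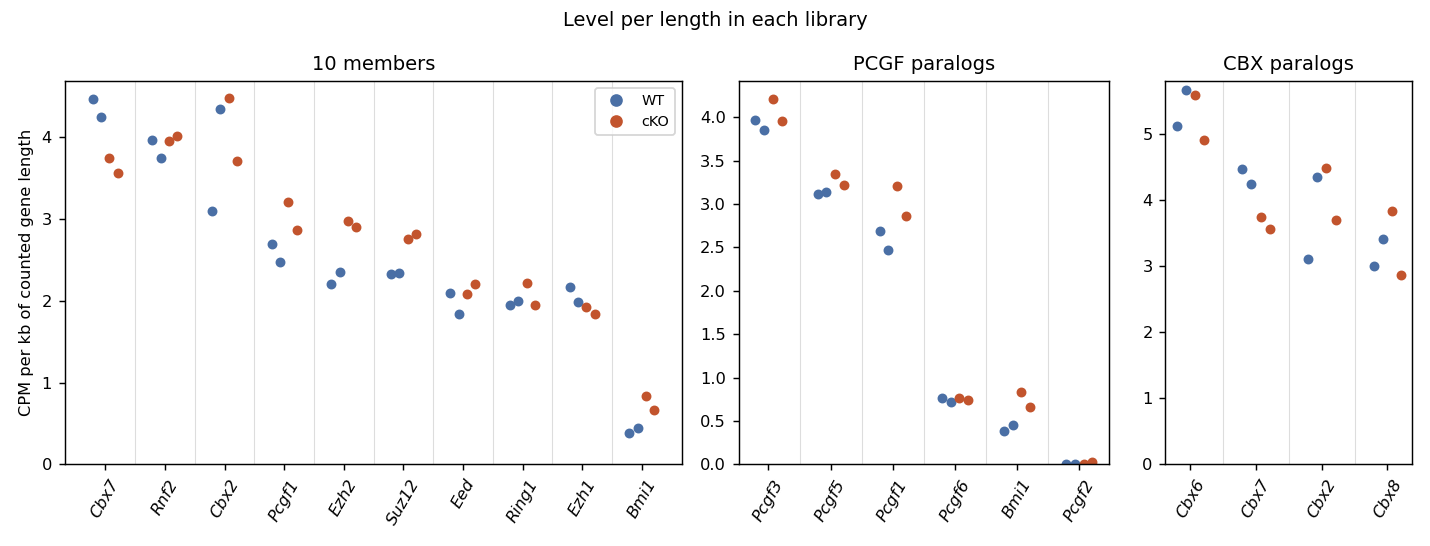
CPM per kb of counted gene length (y axes, from 0) of the 10 members, of the 6 PCGF paralogs and of 4 CBX paralogs, 1 point per library, genes ordered by their mean. Bmi1 sits below the other 9 members, with 0.378 to 0.831 CPM per kb, and Pcgf2 is close to 0.

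Within the PCGF family the order of levels was Pcgf3 (4.00 CPM per kb), Pcgf5 (3.20), Pcgf1 (2.81), Pcgf6 (0.748), Bmi1 (0.580) and Pcgf2 (0.0098). Pcgf3, Pcgf5 and Pcgf6 code for subunits of variant PRC1, and Pcgf2 codes for the closest paralog of BMI1 in canonical PRC1. Pcgf5 overlapped Pcgf1, and Pcgf6 overlapped Bmi1, while the other steps were wider than the ranges. Pcgf2 had 1, 4, 0 and 14 fragments, so that Bmi1 carried most of the counted output of the canonical PCGF genes. Among the 4 CBX genes compared, the order was Cbx6 (5.33 CPM per kb), Cbx7 (4.00), Cbx2 (3.91) and Cbx8 (3.28), in which Cbx7 overlapped Cbx2, and Cbx2 overlapped Cbx8. A gene counted over introns has its level set by intron length and decay too, and these are levels of labelled RNA and not of protein.

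Other genes of the Polycomb system were taken as 5 lists of 45 genes, of which 44 were in the table and 40 had a mean of at least 1 CPM. Output was higher in cKO for 22 and lower for 18, with a median log2 fold change of 0.01. DESeq2 called 1 of the 40, Auts2, which decreased, against 1.57% of all tested genes called with decreased output. At an unadjusted p under 0.05 there were 5 of the 40 by DESeq2 and 4 by edgeR, no more than the shares of 13.5% and 15.6% over all tested genes, and edgeR called 0.

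Auts2 codes for a partner of variant PRC1 with PCGF3 or PCGF5. It had 17.3 and 22.3 CPM in WT against 14.6 and 11.3 CPM in cKO. This rested on 739 and 1084.5 fragments in WT against 561 and 450 in cKO, over a counted interval of 1105888 bp. The mean level was 0.0148 CPM per kb, at percentile 1.686 of the tested genes. Both cKO libraries were below both WT libraries, with replicates of each genotype spread. Its log2 fold change was -0.62 ± 0.195 (SE, adjusted p = 0.0398 by DESeq2), and the call was not made by edgeR (adjusted p = 0.209), by limma voom (0.208), without independent filtering (0.0722) or without any 1 library. The 15 variant PRC1 genes had 8 higher and 7 lower in cKO, with 1 called, Auts2, and a median log2 fold change of 0.01. Bcor, a corepressor of the PCGF1 complex, had the next largest value, with 179 and 211 CPM in WT against 249 and 204 CPM in cKO, which overlapped (log2 fold change 0.21, adjusted p = 0.3497). With 1 library left out Bcor ran from 0.071 (cKO replicate 1) to 0.34 (WT replicate 2 or cKO replicate 2).

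Of 8 PRC2 accessory genes, 5 were higher and 3 lower, 0 were called by DESeq2 or edgeR, and 2 had an unadjusted p under 0.05 by each tool. Phf1, a Tudor protein that recruits PRC2, had 17.98 and 17.7 CPM in WT against 12.2 and 13.7 CPM in cKO. The genotypes did not overlap, with a log2 fold change of -0.47 ± 0.172 (SE, adjusted p = 0.107 by DESeq2). Its paralog Phf19 had 7.25 and 12.6 CPM in WT against 14.4 and 11.1 CPM in cKO, which overlapped (log2 fold change 0.36, adjusted p = 0.596 by DESeq2), and its fold change was 0.0072 with WT replicate 1 left out and 0.82 with WT replicate 2 left out.

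Of 6 canonical PRC1 genes, 4 were higher and 2 lower, 0 were called by DESeq2 or edgeR, and 0 had an unadjusted p under 0.05 by either. Phc2, a polyhomeotic subunit, had a log2 fold change of -0.06 (adjusted p = 0.863 by DESeq2), and Scmh1, a partner of the polyhomeotic subunits, had one of 0.06 (0.036 to 0.080 with 1 library left out, adjusted p = 0.855). The 9 genes of the complexes that remove ubiquitin from H2A had 5 higher and 4 lower, with 0 called and 0 at an unadjusted p under 0.05 by DESeq2 or edgeR. Mbd5 (log2 fold change 0.13, adjusted p = 0.511) and Bap1, the ubiquitin hydrolase (-0.08, adjusted p = 0.816), had the largest values among them, and neither passed the test.

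**Figure D4:**
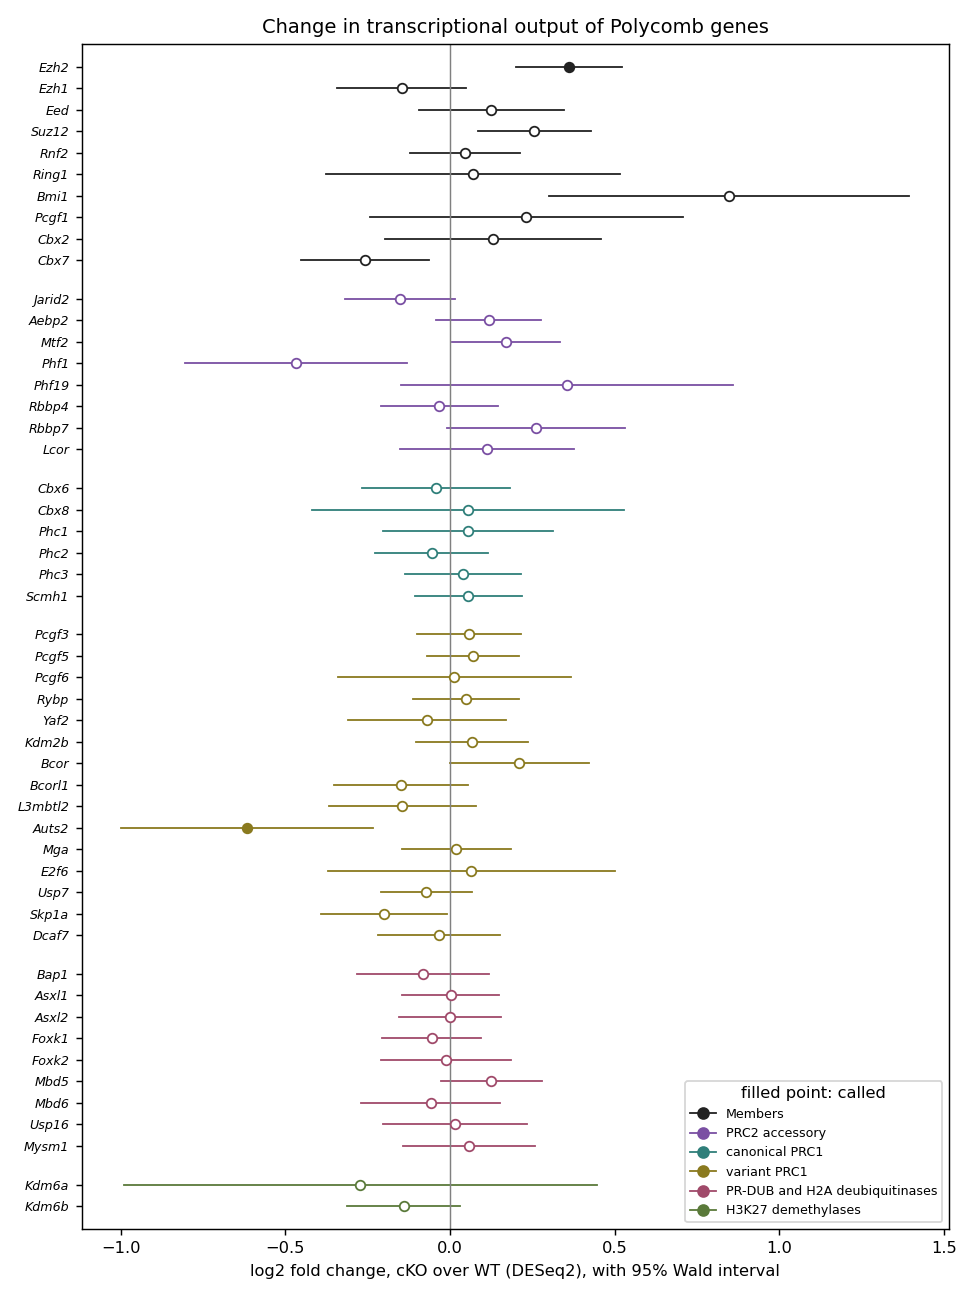
DESeq2 log2 fold change, cKO over WT (x axis), with 95% Wald intervals for the 10 members and the 40 related Polycomb genes with a mean of at least 1 CPM, coloured by list; filled points were called. Ezh2 (0.36) and Auts2 (-0.62) are the filled points, and Bmi1 (0.85) has the largest value with a wide interval.

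The demethylases that remove the PRC2 mark, Kdm6a and Kdm6b, were the 2 genes of their list. Kdm6a had 266 and 156 CPM in WT against 174 and 176 CPM in cKO. Only WT replicate 1 stood out. Kdm6a is an X-linked gene known to escape X inactivation, and WT replicate 1 was also the library with 172 CPM of Xist, whose part in the value was not tested. The log2 fold change was -0.27 ± 0.367 (SE, adjusted p = 0.836 by DESeq2), 0.15 without WT replicate 1 and -0.60 without WT replicate 2 (adjusted p = 3.71e-07). Kdm6b had 145 and 155 CPM in WT against 142 and 131 CPM in cKO (log2 fold change -0.14, or -0.19 to -0.089 with 1 library left out, adjusted p = 0.505). DESeq2 and edgeR called 0 of the 2, with 0 at an unadjusted p under 0.05.

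Most genes of a list that Polycomb is known to silence were near or at 0 in both genotypes. Of 41 such genes, the 39 Hox genes with Cdkn2a and Cdkn2b, 31 had at most 3 fragments in each library, and 26 had 0 in every library. Over all 24984 genes of the table these counts were 8054 and 5226. Cdkn2a had 1 and 2 fragments in WT against 0 and 2 in cKO, and Cdkn2b had 1 and 5 in WT against 0 and 0 in cKO. The Hox genes summed to 6.71 and 1.15 CPM in WT against 0.598 and 0.629 CPM in cKO. Hoxa3 was the single gene of the 41 with a mean of at least 1 CPM, and it had 206 and 32 fragments in WT against 11 and 7.5 in cKO. It reached that mean through WT replicate 1 alone, with 4.83 CPM there against 0.657, 0.286 and 0.189 CPM, so its difference is given as values and not as a test.

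Genes of dividing cells also had higher means in cKO. The 18 genes of S and G2/M phase summed to 630 and 923 CPM in WT against 1050 and 919 CPM in cKO. Of these, 17 had a higher mean in cKO and 9 were above both WT libraries in both cKO libraries, against 24.9% of all tested genes, 0 were called by DESeq2 or edgeR. By each tool 5 of the 18 had an unadjusted p under 0.05, against 13.5% by DESeq2 and 15.6% by edgeR over all tested genes. The median log2 fold change of the 18 was 0.35, against 0.04 with WT replicate 1 left out and 0.72 with WT replicate 2 left out. Bub1, a mitotic checkpoint kinase, had 4.50 and 8.30 CPM in WT against 12.8 and 10.1 CPM in cKO (log2 fold change 0.84, adjusted p = 0.0651 by DESeq2). Without WT replicate 2 it was called (1.35, adjusted p = 0.00295), and without WT replicate 1 it was not (0.46). Mki67, the marker Ki-67, had 100.03 and 184 CPM in WT against 242 and 169 CPM in cKO (log2 fold change 0.53, adjusted p = 0.725 by DESeq2), and its fold change was 0.15 with WT replicate 1 left out and 1.04 with WT replicate 2 left out.

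Ezh2 had 143 and 153 CPM in WT, and its log2 fold change without WT replicate 1 was 0.31. Without that library the median of the 18 S and G2/M genes was 0.04, with Bub1 at 0.46. Suz12 had 95.3 and 95.8 CPM in WT, and Cbx2 had 25.6 and 35.9 CPM. Of the members, Cbx2 had the widest step between WT libraries. The part of dividing cells in the values of Ezh2, Suz12 and Bmi1 was not tested.

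**Figure D5:**
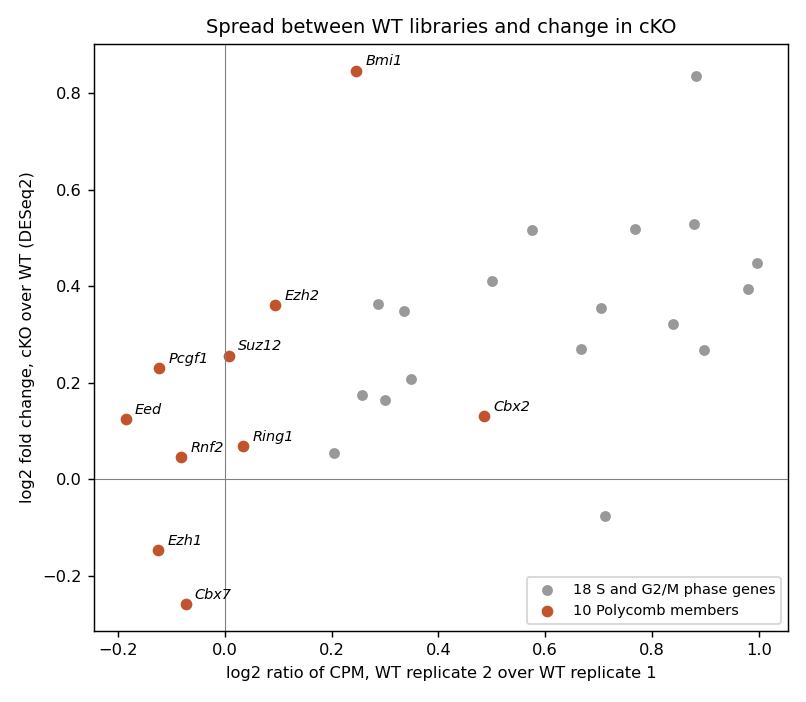
Log2 ratio of CPM in WT replicate 2 over WT replicate 1 (x axis) against the DESeq2 log2 fold change, cKO over WT (y axis), for the 10 Polycomb genes (orange, named) and the 18 S and G2/M genes (grey). All grey points lie right of 0, being lower in WT replicate 1, whereas 5 Polycomb genes lie right of 0, with Cbx2 the furthest, and 5 lie left; the axes share the WT libraries, and no relation is drawn from them.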

How the data were processed

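TTchem-seq of DP thymocytes was compared between 2 WT and 2 cKO libraries, grouped by their sample titles. Per the study's methods and the submitters' processing notes, the authors filtered reads with fastp 0.13.1 and aligned them with STAR 2.7.9a to GRCm38 with RefGene annotation, and marked duplicate reads. The methods take the gene counts from STAR's own output, whereas the submitters' notes also name featureCounts 1.6.1 and the table, with fractions and introns, has the layout of that tool, a conflict not settled here. The deposited table holds expected counts, that is, fragments per gene, of which 8.61% of values are fractional, over whole transcript intervals with introns, and another deposited column gives the length in bp. The labels' protocol names poly(A) capture, whereas the methods name depletion of ribosomal RNA and strand-specific libraries. Strand use in counting, whether marked duplicates were removed and the rule for fractions are not given in the sources used here. The authors added yeast RNA as a spike-in, which was not used for scaling. No molecular identifiers are described, so fragments are not independent molecules.

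Counts were rounded and tested with the DESeq2 1.42.0 Wald test over all genes (default size factors, unshrunken fold changes, independent filtering at 0.1), the method the study names for this assay. CPM were computed here from the table totals. Alternatives were edgeR 4.0.16 quasi-likelihood, limma 3.58.1 voom, TMM and total count factors, other criteria, a replicate block and leaving out each library. The DESeq2 and edgeR fits were also run on simulated counts as a check that fold changes are recovered. That check does not bear on the calls reported here. Ratios were compared by exact permutation. Tables were handled in R 4.3.3 and in Python 3.11.15, with numpy 2.4.6, pandas 2.3.3 and scipy 1.17.1, and plots drawn with matplotlib 3.10.9. The members, related lists, marker lists and tests were chosen with earlier results of these data known. The text names every member, Tox4, each called gene of the related lists and, where fewer than 2 of a list were called, the 2 with the largest absolute log2 fold change among those with a mean of at least 1 CPM. The PCGF and CBX paralogs are also named for their levels. Ezhip was not analysed here, and 1 related gene and 1 marker were taken out of the lists and are not reported here.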

Additional observations from a re-analysis of the deposited data

How the results depend on the processing

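Of the 10 members, 1 was called (Ezh2). That number was 0 by edgeR, 0 by limma voom, 0 where a change of 1.5-fold was required, and 2 (Ezh2 and Bmi1) when 1 CPM was required in every library. It ranged from 0 to 1 when each library was left out. The 1 call among related genes (Auts2) became 0 by edgeR, 0 by limma voom and 0 without independent filtering, and ranged from 0 to 2 with 1 library left out, the 2 being Jarid2 and Kdm6a without WT replicate 2. The log2 fold change of Tox4 was -0.31 in each setting, with an adjusted p of 0.153 by edgeR, 0.143 by limma voom, 0.0511 with total count factors and 0.0821 without independent filtering, and it lay between -0.34 and -0.28 with 1 library left out, where the call was lost each time (adjusted p from 0.196 to 0.792). The cause of these losses was not tested.

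Same-numbered WT and cKO libraries did not deviate together (correlation of deviations -0.03 over 11625 genes), so the samples were not treated as paired. Rn45s was nonetheless higher in replicate 2 of both genotypes (27121 and 43049 CPM in WT, 24415 and 40460 CPM in cKO), and a preparation shared by number was not tested. With the replicate number as a block, 0 members and 0 related genes were called by DESeq2 and 0 and 0 by edgeR, and Tox4 kept -0.31 with an adjusted p of 0.361 by DESeq2 and 0.232 by edgeR. The mean of paired differences equals the unpaired difference for each ratio.

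With 1 library left out, the log2 difference of the ratio ranged from 0.40 to 0.62 for Ezh2 over Ezh1, from 0.13 to 0.69 for Cbx2 over Cbx7 and from 0.43 to 0.80 for Bmi1 over Pcgf1. Rnf2 over Ring1 ranged from -0.12 to 0.082, turning to 0.037 without WT replicate 1 and to 0.082 without cKO replicate 1. Single genes that turned were Ring1 (-0.018 without cKO replicate 1, up to 0.16), Cbx2 (-0.099 without WT replicate 1 and -0.0040 without cKO replicate 1), Phc2 (0.011 and 0.0085) and Kdm6a (0.15 without WT replicate 1, down to -0.60). In refits that leave 1 library in a genotype, that library was assumed to vary like the other genotype. Over 23 named genes, 172 values in the other settings kept their direction and side of the threshold, 2 passed it newly (Bmi1, and Hoxa3 without independent filtering, which WT replicate 1 alone carried past the mean CPM criterion) and 9 lost it (Ezh2 in 4 settings, Auts2 in 5).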
